A study of Mus musculus with 16 samples.

Results

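Ccl20 encodes a CC chemokine that epithelium secretes and that attracts lymphocytes and dendritic cells through the receptor CCR6. Its mRNA was followed here in organoids grown from mouse colon, which are hollow cultures of epithelial cells, some of them given tumour necrosis factor alpha (TNFa). Of 19825 probe sets in the deposited table, 1 was assigned to Ccl20, so the gene is 1 of 18850 named genes and 1 of 11766 bright enough to be tested. The gene was chosen by its large TNFa change in these arrays, so that change is given as a description with no test. The contrasts between genotypes did not serve to choose it and were tested.

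The 16 arrays formed 4 groups of 4. They were mutant organoids given TNFa, untreated mutant organoids, wild-type (WT) organoids given TNFa and untreated WT organoids. TNFa was recombinant protein at 50 ng/mL for 12 h, and all groups grew in ENR, a usual organoid medium. The mutant is called ATF2 fl/fl / ATF7 KO in some labels, while others have ATF2 knocked out and ATF7 floxed. No label names a Cre or says that the floxed allele was recombined, so loss of both proteins is not known. Strain, age and the number of animals are not stated in these sources. No label says that the numbered samples of a group came from separate animals or cultures, so the p-values rest on a spread that may be technical.

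The targeted gene Atf2 averaged 10.12 ± 0.01 log2 in mutant with TNFa, 10.15 ± 0.03 in mutant, 10.18 ± 0.02 in WT with TNFa and 10.16 ± 0.14 in WT (SD, n = 4 each), so its probe set did not separate the genotypes. The position of that probe set within Atf2 is not known here, and if it lies outside the deleted part it checks nothing. No probe set was named for Atf7, which was not analysed here. Signals below 6.56 log2, the highest 40th percentile of any array, are called dim, and folds from that range are approximate. Of the colon epithelial markers, 11 of 11 measured were above that level on every array. Of the markers of other cells, 8 of 11 immune, 5 of 9 fibroblast and muscle and 5 of 6 endothelial markers were dim on all 16 arrays. Summed over the 11 immune markers, the linear signal ran from 1180 to 1360 in mutant with TNFa, 1070 to 1220 in mutant, 972 to 1010 in WT with TNFa and 1060 to 1150 in WT. In these bulk samples, fewer cells of a type and less RNA per cell cannot be told apart. Array WT + TNFa 2 stood apart, with a mean correlation of 0.9885 with its group against 0.9926 to 0.9934 for the other three.

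TNF binds its receptor TNFR1 on epithelial cells and builds a complex of TRAF2, the cIAP ubiquitin ligases and the linear ubiquitin assembly complex. The complex activates the IkB kinase, which frees NF-kB from its IkB inhibitors. NF-kB then enters the nucleus and switches on genes such as Ccl20. In the gut, CCL20 is known as a product of the epithelium over lymphoid follicles and of inflamed surface epithelium, and it draws CCR6-bearing B cells, Th17 cells and dendritic cells. It also kills bacteria directly, and some beta-defensins act on the same receptor.

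The stretch before the Ccl20 start site is shown because it carries the letters that NF-kB is known to bind. It comes from RefSeq, build GRCm38.p6, chr1:83116516-83116765, plus strand, and holds the 250 bases before the start. Capitals mark matches on either strand to a kappaB frame, which is GGG and CC with 5 bases of any kind between them, to an ETS core and to a TATA box.
Ccl20: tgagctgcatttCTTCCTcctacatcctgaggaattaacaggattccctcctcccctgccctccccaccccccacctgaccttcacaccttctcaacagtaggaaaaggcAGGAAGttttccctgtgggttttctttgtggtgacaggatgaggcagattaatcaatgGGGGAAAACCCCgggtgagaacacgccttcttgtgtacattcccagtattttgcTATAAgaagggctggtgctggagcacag
The run of capitals at positions -82 to -71, counted back from the start site, holds 3 overlapping matches to the kappaB frame. The one that starts at -80 also matches, on the reverse strand, the stricter kappaB consensus of 10 letters, which sets purines and pyrimidines at inner positions. Of 32851 promoter windows searched over the same 250 bases, 45.8% held the frame and 7.25% held the stricter consensus. The ETS core AGGAAG, which stands at -140 and, reversed, at -238, was in 29.5% of windows. The TATA box letters, TATAA, stand at -28 and were in 22.8% of windows. The cAMP response element TGACGTCA, a site that ATF2 and its partners can bind, was not among these letters and occurred in 1.55% of windows. The AP-1 site TGANTCA was likewise not found here and occurred in 6.75%. Such matches describe the letters and say nothing of which factor binds.

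Ccl20 averaged just above the array medians in untreated organoids and far above them with TNFa, and its levels overlapped between genotypes. Its signal was 11.58, 11.46, 11.60 and 11.48 log2 on the 4 arrays of mutant with TNFa, against 7.27, 6.96, 7.51 and 7.40 in mutant. It was 11.57, 11.24, 11.49 and 11.49 log2 in WT with TNFa, against 7.54, 7.35, 7.03 and 7.29 in WT. The treated and untreated arrays did not overlap in either genotype, while the genotypes overlapped both with and without TNFa. The lowest treated array, WT + TNFa 2, was the array that stood apart, and it still lay 3.71 log2, or 13.1-fold, above the highest untreated one.

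**Figure D1:**
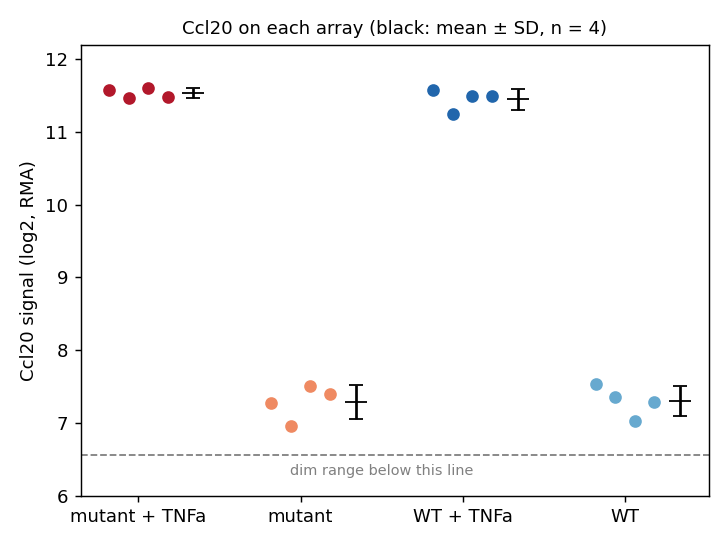
Ccl20 signal (log2, vertical axis) on each of the 16 arrays in 4 groups; points are arrays, black bars are group means ± SD (n = 4), and the dashed line is 6.56 log2, below which signals are dim. The 8 treated arrays lie between 11.24 and 11.60 and the 8 untreated arrays between 6.96 and 7.54.

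Group means ran from 7.29 ± 0.24 log2 in mutant and 7.30 ± 0.21 in WT to 11.45 ± 0.14 in WT with TNFa and 11.53 ± 0.07 in mutant with TNFa (SD, n = 4 each). In that order, mutant and WT without TNFa overlapped, and so did both treated groups, whose means differed by 0.08 log2. The wide step lay between WT and WT with TNFa. The TNFa change was 4.25 log2 in mutant (SE 0.11, 95% interval 4.01 to 4.49, 19.0-fold) and 4.15 in WT (SE 0.11, 3.91 to 4.39, 17.7-fold). Taking each treated array with each untreated array of its genotype, the 16 differences ran from 3.95 to 4.64 log2 in mutant and from 3.71 to 4.54 in WT. The change ranked 1 among all tested genes in each genotype. For scale, 95% of tested genes changed by less than 0.34 log2 in mutant and 0.40 in WT, and only 10 genes in mutant and 3 in WT were higher by 2 log2 or more. Ccl20 varied more between replicates than most genes, with a pooled within-group SD of 0.18 log2 against a median of 0.12, and 84.6% of tested genes had a smaller one.

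The genotype comparison asks whether organoids with altered Atf2 and Atf7 alleles held a different amount of Ccl20 mRNA. ATF2 and ATF7 are transcription factors and substrates of the JNK and p38 kinases, which TNF also activates. No genotype difference in Ccl20 passed the test. Without TNFa the mutant minus WT difference was -0.02 log2 (SE 0.11, 95% interval -0.26 to 0.22, limma adjusted p = 0.975). That interval spans 0.837-fold to 1.17-fold. With TNFa it was 0.08 log2 (SE 0.11, interval -0.16 to 0.32, limma adjusted p = 0.811), spanning 0.897-fold to 1.25-fold. Without array WT + TNFa 2 this difference was 0.01 log2. The TNFa change was larger in mutant by 0.10 log2 (SE 0.16, interval -0.24 to 0.44, limma adjusted p = 0.924), a ratio of 1.07 with bounds of 0.847 and 1.36. Exact two-sided permutation tests over the 4 against 4 arrays gave p = 0.914 without TNFa and p = 0.457 with it, where the smallest possible is 0.0286. Among all tested genes, 2.48% were called between genotypes without TNFa, 2.69% with TNFa and 0.0085% for the difference of changes. In simulated data, 200 genes were shifted by 0.5 log2. The test found 79% of them in the comparison without TNFa, 86.5% with TNFa and 55% for the difference of changes. Each simulated gene had the same spread in every group, so the shares without and with TNFa differ only by the random draw. Each share is an average over genes, and Ccl20 varied more between replicates than most. The share also depends on how many genes change, so it is not the chance of calling such a shift in Ccl20.

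The genes most like Ccl20 in size were found by the root-mean-square difference over the 16 arrays, each gene centred on its own mean. Nos2, the inducible nitric oxide synthase, came closest at 0.34 log2, against a median of 2.10 over all tested genes. Next were the cytokine gene Il1a (1.00), the chloride channel regulator Clca4b (1.07), the fatty acyl-CoA reductase Far2 (1.10) and Tnf itself (1.12). The macrophage growth factor Csf1 (1.15), the copper oxidase ceruloplasmin, Cp (1.15), and Tnfaip3, the gene of A20, a brake on NF-kB (1.18), followed. The TNFa changes next in size after Ccl20 in mutant were those of Nos2, Il1a, Tnf, Far2 and Cp, each higher with TNFa. In WT they were those of Nos2 and Csf1, higher with TNFa, and of the gasdermin genes Gsdmc3, Gsdmc4 and Gsdmc2, which fell.

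**Figure D2:**
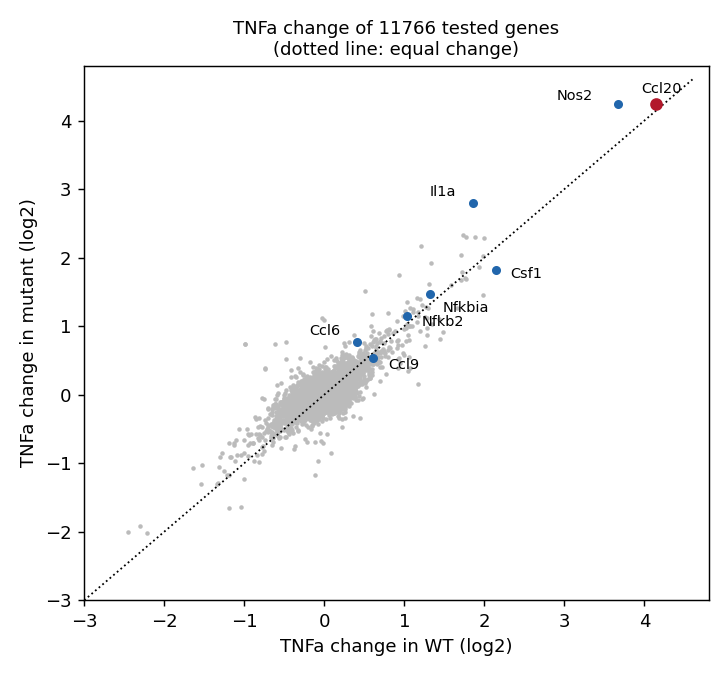
TNFa change (log2) of the 11766 tested genes in mutant (vertical axis) and WT (horizontal axis); grey dots are genes, the dotted line marks equal change, and Ccl20 is red. Ccl20, at 4.25 in mutant and 4.15 in WT, lies at the upper right close to the line, with Nos2 beside it.

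Nos2 had a low and more variable baseline. Its signal was 10.15, 10.24, 10.03 and 9.90 log2 in mutant with TNFa, against 5.34, 5.79, 6.51 and 5.72 in mutant, and 9.87, 10.19, 10.01 and 10.22 in WT with TNFa, against 6.29, 6.56, 6.23 and 6.52 in WT. The treated groups overlapped, and untreated Nos2 was dim in both genotypes, with 3 of the 4 mutant arrays below all WT ones. Its genotype difference without TNFa was -0.56 log2 (SE 0.17, limma adjusted p = 0.115), where that of Ccl20 was -0.02. Its TNFa change was larger in mutant by 0.57 log2 (95% interval 0.05 to 1.08, adjusted p = 0.635). Between Ccl20 and Nos2 these differences were not tested against each other.

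Some of these genes did differ between genotypes. With TNFa, mutant organoids were higher in Il1a (0.65 log2, SE 0.14, limma adjusted p = 0.0203) and Far2 (0.61 log2, SE 0.12, adjusted p = 0.00948). The Il1a call was lost under 5 of 25 alternative settings, with adjusted p up to 0.0662 without array WT + TNFa 1. Leaving out WT + TNFa 2, mutant + TNFa 1 or mutant + TNFa 4 also ended it. Il1a was dim without TNFa in both genotypes. Without TNFa, mutant organoids were lower in Cp (-0.83 log2, SE 0.17, adjusted p = 0.0116). For none of the 8 genes did the difference of TNFa changes pass the test over all genes. The estimates for them ran from -0.33 log2 in Csf1 to 0.94 in Il1a, with that of Ccl20 at 0.10. The 95% intervals of Nos2, Il1a, Far2, Tnf and Cp, which are not adjusted for the number of genes, lay above 0. Nos2 and Il1a had dim means without TNFa and were tested largely through the treated groups. The untreated mutant means of Tnf (6.58 log2) and Cp (6.62) were just above the dim range. For these 4 genes the differences of changes are thus approximate.

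**Figure D3:**
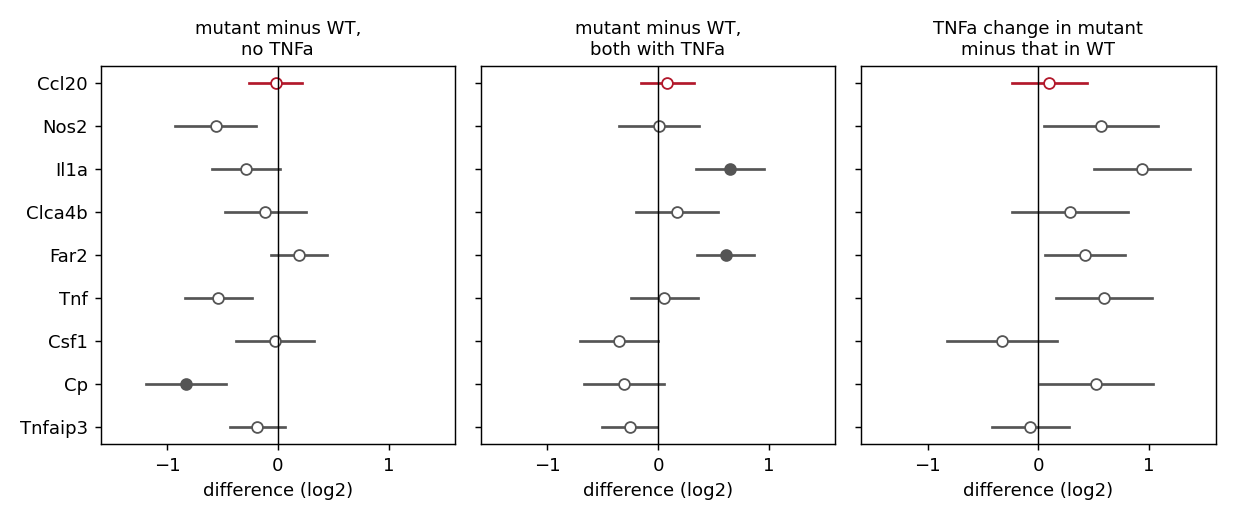
Differences (log2, horizontal axes) for Ccl20 (red) and the 8 genes closest to it in size, with 95% intervals; filled points passed the test over all genes. Ccl20 lies at -0.02, 0.08 and 0.10 with intervals that hold 0 in each panel, while Il1a and Far2 with TNFa and Cp without it have filled points.

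When each gene was also scaled to its own SD, so that only the shape of the profile counted, Nfkb2, the gene of an NF-kB subunit, came closest to Ccl20 (0.12 SD, against a median of 1.35). The integrin-associated protein gene Cd47 (0.14), Nfkbia, which encodes the inhibitor IkBa (0.14), and Nos2 (0.15) followed. The others were the fatty acid elongation gene Hacd2 (0.16), Tmem176b, a membrane protein gene (0.16), and the guanylin peptide genes Guca2b (0.18) and Guca2a (0.19). Nfkbia was 10.67, 10.71, 10.80 and 10.79 log2 in mutant with TNFa, against 9.26, 9.18, 9.48 and 9.16 in mutant. In WT with TNFa it was 10.65, 10.48, 10.66 and 10.75, against 9.17, 9.32, 9.41 and 9.36 in WT. As for Ccl20, treated and untreated arrays were far apart and genotypes overlapped, but the step was smaller. Nfkbia was picked for that likeness of shape, so the shared pattern is no separate result.

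**Figure D4:**
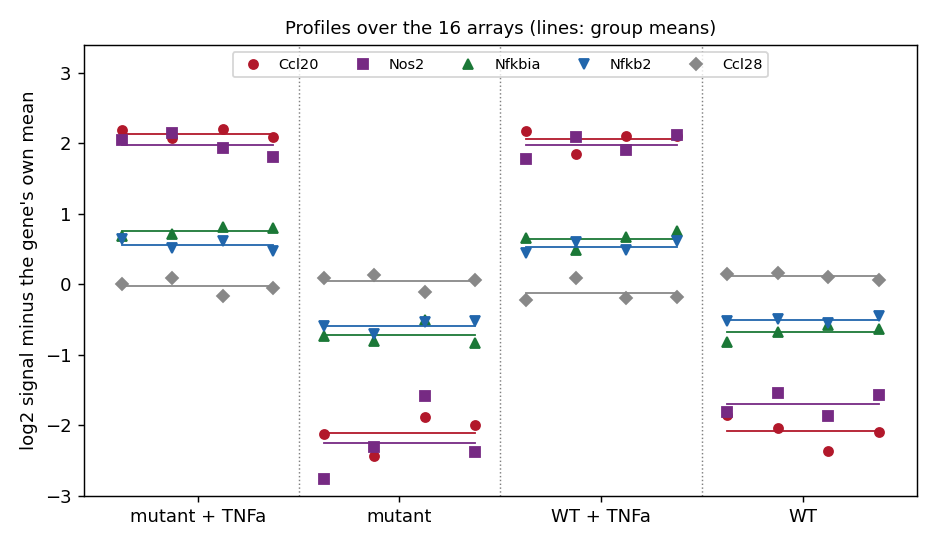
Log2 signal minus the gene's own mean (vertical axis) on the 16 arrays in 4 groups for Ccl20, Nos2, Nfkbia, Nfkb2 and the chemokine gene Ccl28; lines are group means. Ccl20 and Nos2 make steps of about the same height, Nfkbia and Nfkb2 the same shape at a lower height, and Ccl28 stays near 0.

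Of these 15 genes, 14 had promoter windows, and 7 of their 21 windows, from 5 genes, held the stricter kappaB consensus, against 7.25% of all windows. Of the CC chemokine genes looked up besides Ccl20, Ccl9 had it, while Ccl6, Ccl22, Ccl25, Ccl27a and Ccl28 did not. The matches nearest the start site in the windows of Ccl20 and those genes are shown because these genes were all higher with TNFa. Each stretch has 30 bases of GRCm38.p6 on the strand of the gene, with the 10 matching letters in capitals.
Ccl20, chr1:83116676-83116705, plus strand: aatcaatgggGGAAAACCCCgggtgagaac
Csf1, chr3:107760604-107760633, minus strand: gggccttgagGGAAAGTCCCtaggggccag
Tnfaip3, chr10:19015411-19015440, minus strand: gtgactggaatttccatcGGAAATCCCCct
Nfkb2, chr19:46304707-46304736, plus strand: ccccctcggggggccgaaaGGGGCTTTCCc
Nfkbia, chr12:55492657-55492686, minus strand: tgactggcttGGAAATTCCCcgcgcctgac
Tmem176b, chr6:48841387-48841416, minus strand: ggcccctttaGGGGTTTTCCagcaggcagc
Ccl9, chr11:83578652-83578681, minus strand: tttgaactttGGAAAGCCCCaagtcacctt
Genes can have several windows, so these counts are not shares of genes. Il1a, Tnf, Clca4b, Far2, Cp, Cd47, Hacd2, Guca2a and Guca2b had no such match.

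Among the CC chemokines, a family of secreted proteins with paired cysteines, Ccl20 had by far the highest change. Of 19 genes measured, 9 besides Ccl20 were bright enough to be tested. In mutant, 2 of these 9 rose and 0 fell, where 5.98% of all tested genes were called, 3.51% as rises and 2.47% as falls. In WT, 2 of 9 rose and 0 fell, where 10.8% of all tested genes were called, 5.03% as rises and 5.75% as falls. The median change of the 9 was -0.03 log2 in mutant and 0.13 in WT, against 0.01 over all tested genes in each. The risen genes were Ccl6 and Ccl9, related myeloid-cell attractants of the mouse whose similar sequences could share probes.

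Ccl6 was 10.36, 10.32, 10.41 and 10.36 log2 in mutant with TNFa, against 9.58, 9.64, 9.61 and 9.58 in mutant. In WT with TNFa it was 10.13, 10.02, 10.06 and 10.04, against 9.83, 9.81, 9.54 and 9.47 in WT. No treated array overlapped an untreated one of its genotype, and with TNFa every mutant array exceeded every WT array. The share of all tested genes whose arrays separate in this way was not counted. Ccl6 rose by 0.76 log2 in mutant (limma adjusted p = 1.88e-06) and by 0.40 in WT (adjusted p = 0.00114). With TNFa it was higher in mutant than in WT by 0.30 log2 (SE 0.07, limma adjusted p = 0.0297), a call lost under 8 of 25 alternative settings, with adjusted p up to 0.0884. Each of mutant + TNFa 1 to 4 and WT + TNFa 2 to 4, left out in turn, ended it. Of all tested genes, 1.56% were called higher and 1.13% lower in mutant than in WT with TNFa. The summed immune markers given above were also higher in mutant with TNFa than in WT with TNFa. That gap lay mostly in Lyz2, a lysozyme gene of myeloid cells, which averaged 8.83 log2 in mutant with TNFa and 7.58 in WT with TNFa. Of the 11 markers, 8 were dim on all arrays. Ptprc, Itgam, Adgre1 and Csf1r, which define leukocytes and macrophages, had dim means in every group. The part of these markers in the Ccl6 difference was not tested. The difference of its TNFa changes was 0.36 log2 and did not pass (adjusted p = 0.36). Ccl9, which epithelium over Peyer's patches is known to make, rose by 0.54 log2 in mutant (limma adjusted p = 0.00978) and by 0.61 in WT (adjusted p = 0.00235).

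**Figure D5:**
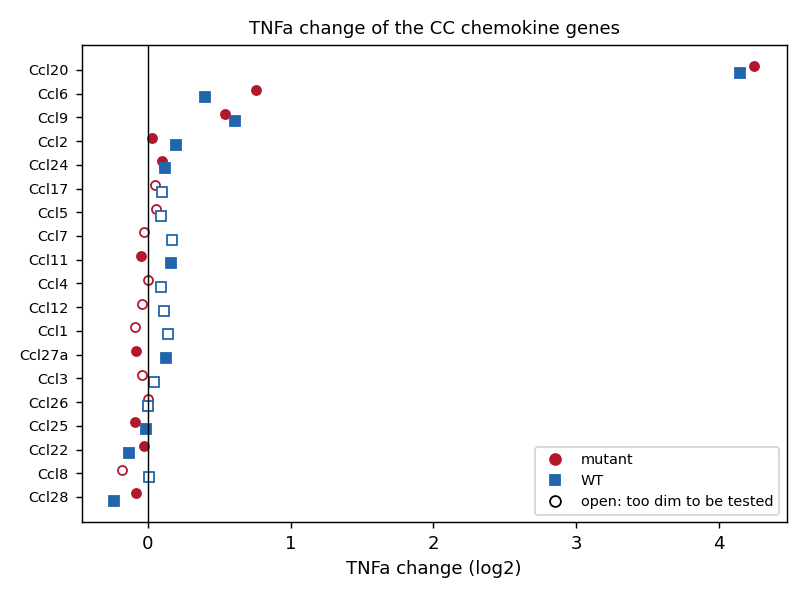
TNFa change (log2, horizontal axis) of 19 CC chemokine genes in mutant (red circles) and WT (blue squares); open symbols are genes too dim to be tested. Ccl20 lies above 4 log2 in both genotypes, and the other 18 genes lie between -0.24 and 0.76.

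The epithelial CC chemokines Ccl28 and Ccl25 did not follow Ccl20. Ccl28, a colonic chemokine that attracts IgA-secreting plasma cells, was 10.27, 10.36, 10.10 and 10.21 log2 in mutant with TNFa, against 10.36, 10.40, 10.16 and 10.32 in mutant. In WT with TNFa it was 10.04, 10.36, 10.07 and 10.08, against 10.41, 10.43, 10.37 and 10.32 in WT. Its change was -0.08 log2 in mutant (limma adjusted p = 0.746) and -0.24 in WT (adjusted p = 0.0518). The WT change was near the threshold: without array WT + TNFa 2 it was -0.32 (adjusted p = 0.00453) and so called as a fall. Centred on array medians it was -0.27 (adjusted p = 0.0206), and over all alternatives the adjusted p ran from 0.00453 to 0.134. Ccl25, the chemokine of small intestinal epithelium, changed by -0.09 log2 in mutant and -0.01 in WT (limma adjusted p = 0.711 in mutant and 0.946 in WT). The monocyte attractant Ccl2 changed by 0.03 in mutant and 0.20 in WT (adjusted p = 0.944 in mutant and 0.233 in WT). Of the CXC family, 5 of 7 tested genes rose in each genotype, where 3.51% of all tested genes rose in mutant and 5.03% in WT. Only 3 genes of the family were above the dim range on all arrays. Cxcl16 was up by 1.28 log2 in mutant and 1.27 in WT. Cxcl11 was up by 2.03 in mutant and 1.71 in WT, from the dim range in both. Cxcl11 was thus tested largely through the treated groups where it was high, and its rises are not independent of that filter.

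The receptor of CCL20 was at the level of dim genes. Ccr6 lay between 4.92 and 6.06 log2 on all 16 arrays and was not tested. Of 38 genes for CCR6 and beta-defensins, some of which bind that receptor, 10 were tested. None was called in mutant and 1, Defb8, in WT, where 5.98% of all tested genes were called in mutant and 10.8% in WT. Defb8 rose by 0.31 log2 in WT (limma adjusted p = 0.0397), a call lost under 11 of 25 alternative settings. Defb1, the widespread epithelial beta-defensin, was dim, with group means of 5.45 log2 in mutant with TNFa, 5.32 in mutant, 5.41 in WT with TNFa and 5.44 in WT.

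The route from the TNF receptor to NF-kB rose at some of its steps and not at others. Of 26 tested genes, 13 rose and 0 fell in mutant, and 14 rose and 0 fell in WT, against the background shares given above. The median change was 0.24 log2 in mutant and 0.25 in WT. Tradd, Birc2, Rnf31, Rbck1, Sharpin, Tab1, Tab2, Tab3, Ikbkb and Otulin were called in neither genotype. Traf5, Ikbkg and Nfkbie were dim, and no probe set was named for Ripk1, Chuk or Nfkb1. Tnfrsf1a, the main TNF receptor gene, changed by -0.01 log2 in mutant and 0.00 in WT (limma adjusted p = 0.983 in mutant and 0.974 in WT). Tnfrsf1b, the second receptor, rose by 0.64 log2 in each (adjusted p = 7.15e-04 in mutant and 4.73e-04 in WT). The adaptor Traf2 rose by 0.74 log2 in mutant and 0.57 in WT, and the cIAP2 gene Birc3 by 1.22 in mutant and 1.01 in WT. Among NF-kB subunits, Nfkb2 rose by 1.15 log2 in mutant and 1.04 in WT and Relb by 0.68 in mutant and 0.54 in WT. Rela, the p65 subunit, changed by 0.18 in mutant and 0.32 in WT (limma adjusted p = 0.529 in mutant and 0.0885 in WT). Of the inhibitors that close the loop, Tnfaip3 rose by 1.87 log2 in mutant and 1.94 in WT and Nfkbia by 1.47 in mutant and 1.32 in WT. Nfkbib, another IkB gene, rose by 0.42 in mutant and 0.54 in WT. The nuclear cofactor Bcl3 rose by 0.93 in mutant and 0.61 in WT, and Nfkbiz by 0.49 in mutant and 0.67 in WT. Each of these changes was below 2 log2, against more than 4 log2 for Ccl20.

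Of 8 tested factors described at the CCL20 promoter, mostly in human cells, 1 rose and 0 fell in each genotype, namely Nfkbiz. Over all tested genes 3.51% rose in mutant and 5.03% in WT, so 1 of 8 is no result about these factors. The epithelial ETS factor gene Elf3 changed by 0.06 log2 in mutant and 0.02 in WT (limma adjusted p = 0.721 in mutant and 0.907 in WT). The AP-1 genes Jun (0.12 in mutant and -0.13 in WT) and Fos (0.14 in mutant and 0.04 in WT) were not called either. Between genotypes without TNFa, mutant organoids were lower in Jun (-0.56 log2, SE 0.08, limma adjusted p = 8.57e-04) and higher in Nfkbiz (0.28 log2, SE 0.06, adjusted p = 0.0231), a call lost under 8 of 25 settings with adjusted p up to 0.0879. Over all tested genes 1.48% were called lower and 1% higher in mutant in that comparison. With TNFa neither was called (limma adjusted p = 0.067 for Jun and 0.524 for Nfkbiz). Of 18 tested genes of stress kinases, ATF2 and its partners, 1 rose and 2 fell with TNFa in mutant, and 1 rose and 1 fell in WT. Over all tested genes, 3.51% rose and 2.47% fell in mutant, and 5.03% rose and 5.75% fell in WT. The 2 falls in mutant were those of Map2k6 and Map3k5. Their calls were lost under 9 of 25 settings for Map2k6 and 11 for Map3k5. The gene that rose was Mapk11, which encodes p38 beta, by 1.31 log2 in mutant and 1.23 in WT. It was lower in mutant than in WT without TNFa (-0.39 log2, limma adjusted p = 0.0238), a call lost under 7 of 25 settings with adjusted p up to 0.0806. Ccl20 did not differ detectably between genotypes in the same arrays, and its relation to Jun, Nfkbiz and Mapk11 was not tested.

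Of 14 tested genes of other inputs known to induce CCL20, 4 rose and 0 fell in mutant, and 3 rose and 1 fell in WT. Over all tested genes, 3.51% rose and 2.47% fell in mutant, and 5.03% rose and 5.75% fell in WT. The fall in WT was that of Il17rc, a call lost under 13 of 25 settings. The rise of Irak2 in mutant was lost under 9 settings and that of Myd88 in WT under 2. Traf3ip2, the adaptor of the interleukin 17 receptor, rose by 0.32 log2 in each genotype (limma adjusted p = 0.00264 in mutant and 0.00194 in WT). Nod2, the sensor of bacterial muramyl dipeptide, rose by 0.81 log2 in mutant and 1.44 in WT, and was lower in mutant than in WT with TNFa (-0.66 log2, limma adjusted p = 0.0216), with 3 of its 4 group means dim. That call was lost under 3 of 25 settings, each without 1 array (WT + TNFa 4, mutant + TNFa 1 or mutant + TNFa 4), with adjusted p up to 0.0843. Only in WT with TNFa was the Nod2 mean above the dim range (6.72 log2). It was thus tested largely through the group where it was high, and its calls are not independent of that filter. The flagellin receptor gene Tlr5 and the interleukin 1 receptor gene Il1r1 were too dim to be tested. Among 12 regulators of mRNA decay, which act on short-lived chemokine mRNAs, 1 rose and 0 fell in each genotype, close to the 5.98% of all tested genes called in mutant and 10.8% in WT. It was Zc3h12a, the gene of the RNase regnase-1, which rose by 0.94 log2 in mutant and 0.78 in WT.

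Ccl20 is best known in the epithelium over lymphoid follicles, where M cells take up antigen. Of 9 tested genes of that epithelium, 5 rose and 0 fell in each genotype, against 3.51% of all tested genes rising in mutant and 5.03% in WT, with Ccl9, Pglyrp1, Anxa5 and Cldn4 rising in both. Pglyrp1, a secreted peptidoglycan-binding protein gene, rose by 0.52 log2 in each, and the tight junction gene Cldn4 by 0.32 log2 in mutant and 0.33 in WT. The fifth was Ctsh in mutant, whose call was lost under 17 of 25 settings, and Tnfaip2 in WT, up by 1.04 log2 from the dim range (limma adjusted p = 0.0012). Tnfaip2 was lower in mutant than in WT with TNFa (-0.76 log2, limma adjusted p = 0.0382), a call lost under 11 of 25 settings with adjusted p up to 0.169. Its mean was 7.14 log2 in WT with TNFa and dim in the other 3 groups. Tnfaip2 was thus tested largely through the group where it was high, and neither of its calls is independent of that filter. Of the M cell genes, some were dim and others were not. Spib, their transcription factor, had group means of 5.65 log2 in mutant with TNFa, 5.67 in mutant, 5.64 in WT with TNFa and 5.45 in WT, and Gp2, their uptake receptor, had 5.65 log2 in mutant with TNFa, 4.88 in mutant, 5.08 in WT with TNFa and 4.99 in WT. The M cell factor gene Sox8 was brighter, with 6.94 log2 in mutant with TNFa, 6.87 in mutant, 6.85 in WT with TNFa and 6.84 in WT. It was not called with TNFa in either genotype, and neither were Tnfrsf11a, the receptor gene for the M cell inducer RANKL, and Marcksl1. Of 5 tested lymphoid tissue signals, 1 rose in each genotype, namely Cxcl16, where 3.51% of all tested genes rose in mutant and 5.03% in WT.

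Beside Ccl20 on chromosome 1, the nearest measured genes on the lower side were Slc19a3, Agfg1 and Tm4sf20, and on the higher side Daw1, Sphkap and Pid1, by the order of genes in GRCm38.p6. None of them had a change like that of Ccl20. Agfg1, a trafficking gene, changed by 0.09 log2 in mutant and 0.18 in WT (limma adjusted p = 0.649 in mutant and 0.106 in WT). Tm4sf20, a membrane protein gene, changed by 0.05 log2 in mutant and 0.06 in WT (adjusted p = 0.789 in mutant and 0.503 in WT). The thiamine transporter gene Slc19a3 and Daw1, Sphkap and Pid1 were dim in every group and not tested.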

How the data were processed

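RNA of 16 organoid samples was measured on single-colour Affymetrix arrays, 1 per sample. Per the submitters' processing notes, the authors made the deposited log2 signals with RMA in Affymetrix Expression Console. Versions, and the build of the array design, are not given in the sources used here. Values ran from 2.23 to 12.9 log2 and array medians from 7.02 to 7.11, and no further normalization was applied. Of 19825 probe sets, 18851 had 1 gene symbol, 0 had several and 974 had none. A gene with several probe sets was read from the brightest one on average, and tested if above its array's 40th percentile on at least 4 arrays. Group means were fitted in 1 limma 3.58.1 model (R 4.3.3) over all 16 arrays, and Benjamini-Hochberg adjusted p under 0.05 over 11766 genes was called. Rises and falls are of called genes. The number of arrays limits the precision.

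Named genes were Ccl20, Atf2, the 8 genes most like Ccl20 by each of 2 measures, the 5 next largest TNFa changes per genotype, the 3 nearest measured genes on each side, and members of 9 gene lists. Ccl20, the lists and the tests were chosen with earlier results of these data known. The functions were tested on simulated arrays. Alternatives were other filters, probe set means, median centring, repeated quantile normalization, another variance model, array weights, the replicate number as a block, smaller fits and leaving out each array. Same-numbered arrays of different groups did not deviate together (5 of 24 pairs correlated above 0.1), so numbers were not taken to pair samples. Those 24 pairs include pairs across genotypes. The titles number treated and untreated samples of a genotype alike, and these pairs correlated between -0.30 (WT 2) and 0.19 (mutant 3). Whether alike numbers mean a shared culture is not stated.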

Additional observations from a re-analysis of the deposited data

Results flagged for a closer look

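Gaps within groups of 4 were checked for 23 genes, Ccl20 and Atf2 among them, in 92 groups, where chance alone flags about 1 in 20. No group of Ccl20 was marked. For Clca4b, array mutant 2 read 9.87 log2, while the other 3 untreated mutant arrays lay between 9.27 and 9.30. For Sphkap, array mutant + TNFa 2 read 6.28 log2, while the other 3 lay between 6.41 and 6.43, all dim.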

How the results depend on the processing

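The TNFa change of Ccl20 moved by less than its replicate SD under every alternative run, from 4.14 to 4.32 log2 in mutant and 4.05 to 4.22 in WT when 1 array at a time was left out. No alternative called a genotype difference of Ccl20. Leaving out 1 array gave -0.11 to 0.09 log2 without TNFa, 0.01 to 0.12 with it and -0.01 to 0.19 for the difference of changes, so the sign of the first turned without WT 1 (0.06) or mutant 2 (0.09), and that of the last without mutant 2 (-0.01). The number of called genes changed with the setting. With array weights it was 1095 in place of 704 for TNFa in mutant, 443 in place of 292 for genotype without TNFa and 617 in place of 317 with it. With only the groups compared it was 720 in place of 1269 for TNFa in WT and 185 in place of 317 for genotype with TNFa. With 1 array left out the counts were 504 to 900 for TNFa in mutant, 955 to 1430 in WT, 198 to 435 for genotype without TNFa, 192 to 340 with it and 0 to 4 for the difference of changes, which called 1 gene. For that difference the stricter filter gave 3, the robust variance trend 5 and array weights 3. With the replicate number as a block it was 0, and the Ccl20 difference with TNFa was 0.08 log2 (limma adjusted p = 0.815). Only 2 of 16 arrays correlated best with an array of their own number. The causes were not tested. With 1 array left out, called CC chemokines numbered 2 in mutant and 2 to 3 in WT, and called genes of the TNF receptor route 11 to 14 in mutant and 12 to 16 in WT. Of 2735 checks of other called genes, 2583 kept the call, 152 lost it and 0 turned sign.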
